A study of Mus musculus with 6 samples.

Results

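The ER membrane protein complex (EMC) genes Emc1, Emc2, Emc3, Emc4, Emc6, Emc7, Emc8, Emc9 and Emc10 were followed on 6 single-colour Agilent arrays of mouse ooplasts and blastocysts. They were found as the non-control probes whose name in the array files, current or earlier, belonged to 1 of these genes. This gave 9 genes and 15 probes, of 27597 gene names and 41174 probes on the arrays. The genes were chosen with their difference between blastocysts and ooplasts already known from these arrays. That difference is therefore given as a description, without a p-value for any of the 9 genes.

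An ooplast is the cytoplasm of an oocyte, and a blastocyst is the embryo shortly before implantation. All samples came from B6C3 F1 mice, and the labels divide them by stage and by age of origin, given as Young or Climacteric. Young ooplasts and climacteric ooplasts were each measured on 1 array. Young blastocysts and climacteric blastocysts were each measured on 2 arrays, which the design text calls biological replicates. No treatment, age in weeks, number of animals or number of ooplasts and embryos per array is given in the labels. The p-values below thus measure the spread between these samples, which may be partly technical.

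The EMC is a protein insertase in the membrane of the endoplasmic reticulum. It inserts tail-anchored proteins and the first membrane segment of many multipass proteins, and helps some multipass proteins to fold. Emc3 belongs to the Oxa1 family of insertases and forms the insertion site together with Emc6 and the subunit named EMC5, which is encoded by Mmgt1. The early embryo inherits its first proteins and mRNAs from the oocyte and replaces the mRNAs after its own genome is activated.

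Values are levels, the log2 processed signal of a probe minus the 75th percentile of its array, so a level of 0 is that percentile. A level tells how a probe stood relative to the rest of its own array. Fewer cells of a type and less RNA per cell cannot be told apart in such bulk samples. Where a gene had several probes, the brightest of them, by its mean level over the 6 arrays, stands for it. As 4 of the 6 are blastocyst arrays, this choice leans toward probes bright in blastocysts. By the standing probe all 9 genes were well above background on all 6 arrays, and no probe of theirs was saturated on any array.

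All 9 genes were higher in blastocysts than in ooplasts, and in all 9 every blastocyst array lay above both ooplast arrays. The difference ranged from 2.05 on the log2 scale for Emc8, which is 4.14-fold, to 6.62 for Emc9, which is 98.5-fold. Limma with Benjamini-Hochberg adjustment over all genes called 35.5% of 15605 genes higher and 39% lower, and 37% of genes lay without overlap above the ooplasts. Nothing is read from the members' 9 of 9 against these shares, because the genes were picked by this contrast. The median difference was 4.19 over the 9 genes and -0.26 over all genes tested. On the mean of each gene's probes that of the 9 genes was 2.95. The median level of the 9 genes was 0.93 in young ooplasts and 0.47 in climacteric ooplasts. It was 5.70 and 5.87 in the young blastocysts and 5.47 and 5.58 in the climacteric blastocysts. Ordered by their difference, Emc8, Emc2, Emc3 and Emc7 followed each other by steps no larger than their standard errors (SE). The same held for Emc6 with Emc10 and for Emc1 with Emc4, while Emc9 stood above Emc4 by more than the SE of either.

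**Figure D1:**
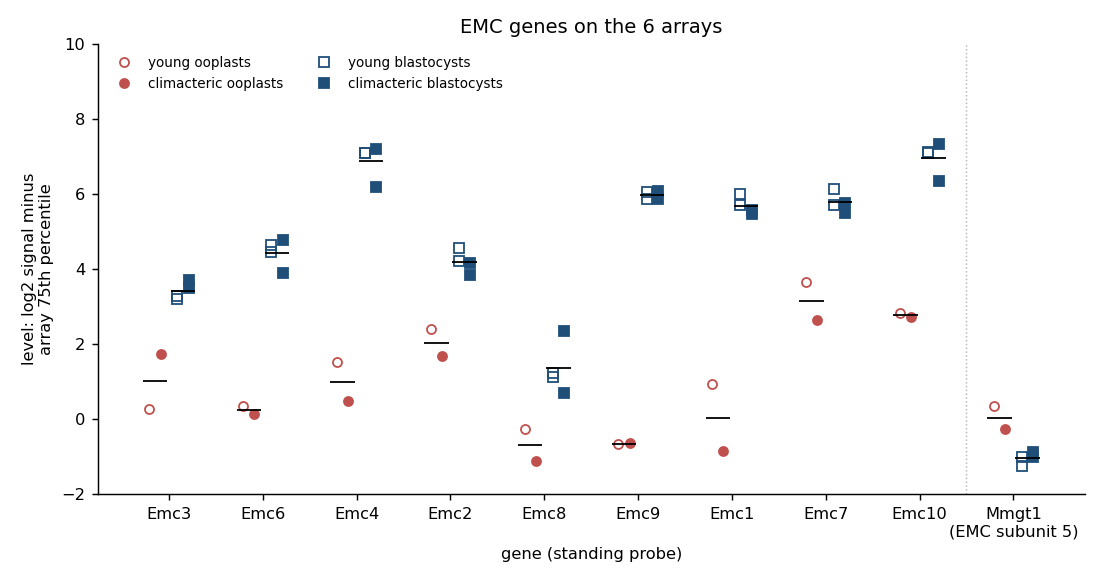
Level of each EMC gene on the 6 arrays (vertical axis, log2 signal relative to the 75th percentile of its array), with circles for ooplasts, squares for blastocysts, open symbols for young, filled symbols for climacteric and a line at each stage mean. Each gene of the 9 has all its squares above its circles, whereas Mmgt1 has its squares between -1.24 and -0.87, below its circles.

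Start-site sequences are shown for the members whose promoter held one of the motifs searched and printed in capitals. Of the 9 genes, 7 matched an entry in the RefSeq promoter table (GRCm38.p6), which holds 250 bases before and 50 after each annotated start. Emc2 and Emc8 had no entry. The ETS-family letters CCGGAAGT, searched like every motif on both strands, were present in 4.31% of 27025 genes and 5.69% of 17492 coding genes. They were present in Emc3, Emc4 and Emc7. Their first base lay at offset -5 in Emc3, 5 in Emc4 and 4 in Emc7, in bases from the start site. In Emc7 the match was on the opposite strand and is read as ACTTCCGG. The sequences run 5′ to 3′ on the strand of the gene, and the capitals mark the ETS letters, for Emc3 (chr6:113531589-113531888, minus strand), Emc4 (chr2:112367978-112368277, minus strand) and Emc7 (chr2:112454775-112455074, plus strand):
Emc3: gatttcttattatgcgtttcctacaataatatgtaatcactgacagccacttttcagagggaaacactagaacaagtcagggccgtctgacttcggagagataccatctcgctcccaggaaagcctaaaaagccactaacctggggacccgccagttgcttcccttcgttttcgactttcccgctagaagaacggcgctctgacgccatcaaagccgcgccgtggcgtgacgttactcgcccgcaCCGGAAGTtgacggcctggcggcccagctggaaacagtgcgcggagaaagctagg
Emc4: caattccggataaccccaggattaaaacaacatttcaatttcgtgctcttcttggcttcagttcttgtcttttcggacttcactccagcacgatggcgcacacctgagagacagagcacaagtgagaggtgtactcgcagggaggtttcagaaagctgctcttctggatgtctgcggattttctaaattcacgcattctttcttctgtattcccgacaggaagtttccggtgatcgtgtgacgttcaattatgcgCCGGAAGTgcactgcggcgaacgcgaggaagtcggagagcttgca
Emc7: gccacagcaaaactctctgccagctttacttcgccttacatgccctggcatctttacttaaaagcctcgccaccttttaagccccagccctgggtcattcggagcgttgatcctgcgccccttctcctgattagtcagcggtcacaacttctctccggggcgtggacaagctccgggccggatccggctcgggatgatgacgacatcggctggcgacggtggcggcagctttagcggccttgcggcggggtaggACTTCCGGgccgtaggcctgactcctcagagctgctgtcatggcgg

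Single members held other letters. The cAMP response element TGACGTCA was present in the Emc10 promoter, at offset -163 from the first of its listed start sites. It was present in 2.03% of all genes and 2.54% of coding genes. The YY1 letters AAGATGGCG were present in Emc6 at offset 30, and in 1.64% of all genes and 2.14% of coding genes. The capitals mark these letters in Emc10 (chr7:44496369-44496668, minus strand) and Emc6 (chr11:73176993-73177292, minus strand):
Emc10: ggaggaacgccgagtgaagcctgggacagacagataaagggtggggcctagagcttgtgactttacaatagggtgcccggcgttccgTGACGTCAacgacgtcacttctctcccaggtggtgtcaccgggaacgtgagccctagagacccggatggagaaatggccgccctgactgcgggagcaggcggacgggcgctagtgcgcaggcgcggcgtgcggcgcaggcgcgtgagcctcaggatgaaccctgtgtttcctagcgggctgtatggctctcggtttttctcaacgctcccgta
Emc6: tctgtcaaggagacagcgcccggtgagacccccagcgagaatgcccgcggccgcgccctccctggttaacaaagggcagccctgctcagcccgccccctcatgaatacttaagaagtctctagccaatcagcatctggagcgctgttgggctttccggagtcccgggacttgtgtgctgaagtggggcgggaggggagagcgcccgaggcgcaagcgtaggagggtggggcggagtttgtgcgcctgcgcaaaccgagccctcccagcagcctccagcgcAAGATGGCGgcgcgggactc

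The GC box GGGCGG was found in Emc1, Emc6 and Emc10, and in 38.2% of all genes and 49.2% of coding genes. CCAAT was found in Emc6 and Emc9, and in 41.1% of all genes and 42.3% of coding genes. No member window held the NRF1 letters GCATGCGC (3.05% of genes), TATAAA (15.7%) or the ER stress element, which begins with the CCAAT letters (0.137%). Among coding genes these shares were 3.94%, 14.8% and 0.166%. The windows of these 7 genes held from 11 CG dinucleotides in Emc9 to 28 in Emc1 and at the first Emc10 start site, where the median promoter of a coding gene held 13. A match is a run of letters in the window and was not tested as a binding site.

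Emc3, Emc6 and Emc4 encode membrane subunits around the insertion site. The Emc3 probe, listed under the earlier name Tmem111, lies at chr6:113481348-113481407 on the minus strand of mm8, the build of the array files. Its level was 0.28 in young ooplasts and 1.75 in climacteric ooplasts. The young blastocysts had 3.29 and 3.20, and the climacteric blastocysts had 3.70 and 3.51. All 4 blastocyst arrays were thus above the higher ooplast array, and the fitted difference was 2.41 ± 0.32 (SE), or 5.33-fold. The other Emc3 probe read -0.65 and 0.68 in the ooplasts and from 1.73 to 2.50 in the blastocysts, a difference of 2.12 ± 0.33 (SE). Both Emc3 probes gave the same order of the ooplast arrays, with the climacteric array higher.

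For Emc6, listed as Tmem93 (chr11:72991850-72991909, minus strand), the ooplast levels were 0.36 in young and 0.14 in climacteric samples. Its blastocyst levels were 4.45 and 4.63 in young and 3.88 and 4.79 in climacteric samples, with a mean of 4.44 ± 0.39 (SD, n = 4). The ages overlapped in blastocysts, and the stage difference was 4.19 ± 0.32 (SE), or 18.2-fold. Emc4, listed as Tmem85 (chr2:112163997-112164056, minus strand), read 1.52 in young and 0.47 in climacteric ooplasts. Its young blastocysts had 7.09 and 7.10, close together, while the climacteric blastocysts had 6.19 and 7.19. The Emc4 difference was 5.90 ± 0.36 (SE), or 59.6-fold.

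Mmgt1, which encodes the remaining subunit at the insertion site, had the opposite sign. Its level was 0.34 in young and -0.26 in climacteric ooplasts, and -1.24, -1.01, -0.87 and -1.01 in the 2 young and 2 climacteric blastocyst arrays. It fell by 1.08 ± 0.29 (SE) from ooplasts to blastocysts (limma, adjusted p = 0.014, Benjamini-Hochberg), lower in 4 of 4 blastocyst arrays than in either ooplast array. The call was lost without the young ooplast array (-0.68), and on slide 1 alone (-1.10). The other Mmgt1 probe was not well above background on any array.

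Emc2, Emc8 and Emc9 encode the cytosolic side of the complex, where Emc2 is the scaffold and the paralogs Emc8 and Emc9 take the same place. Emc2, listed as Ttc35 (chr15:43357658-43357717, plus strand), had levels of 2.40 and 1.69 in young and climacteric ooplasts. The blastocyst levels were 4.21 and 4.56 in young and 3.84 and 4.16 in climacteric samples. Stages did not overlap, and the Emc2 difference was 2.15 ± 0.27 (SE), or 4.44-fold.

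The paralogs were the ends of the range. Emc9, listed as 1500005A01Rik (chr14:54535614-54535673, minus strand), had -0.67 in young and -0.64 in climacteric ooplasts. It had 6.07 and 5.87 in young and 5.86 and 6.08 in climacteric blastocysts. Its arrays within a stage lay closer together than those of any other member, and the difference was 6.62 ± 0.24 (SE). Emc8, listed as Cox4nb (chr8:123543983-123544042, minus strand), had -0.27 in young and -1.11 in climacteric ooplasts. Its blastocyst levels were 1.24 and 1.14 in young and 2.35 and 0.71 in climacteric samples. Emc8 had the smallest difference and the widest blastocyst spread, 2.05 ± 0.52 (SE) with a blastocyst SD of 0.70 (n = 4). Without the climacteric ooplast array the Emc8 difference was 1.46, and without the young one 2.64. The other Emc8 probe passed the background test only in the climacteric ooplasts, at -1.49, so it gave no stage difference.

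Emc1, Emc7 and Emc10 encode subunits with large domains in the lumen of the endoplasmic reticulum. Emc1, listed as C230096C10Rik, had 3 probes that did not read alike. The standing probe (chr4:138649403-138649462, plus strand) had 0.93 in young and -0.84 in climacteric ooplasts. Young blastocysts had 5.70 and 5.99 and climacteric blastocysts 5.47 and 5.58, a difference of 5.64 ± 0.38 (SE), or 49.9-fold. The difference was 4.92 without the climacteric and 6.36 without the young ooplast array, and 2.38 on the mean of the probes.

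Another Emc1 probe (chr4:138650499-138650558) was not well above background in young or climacteric ooplasts and read 0.24 to 1.54 in blastocysts. Its blastocysts were at least 10.2-fold higher, with the lowest signal above background on each ooplast array as the bound. The remaining Emc1 probe (chr4:138639227-138639286) ran the other way. It read 3.53 in young ooplasts, -0.43 in climacteric ooplasts and -1.35 to -0.62 in blastocysts, a difference of -2.46 ± 0.93 (SE). The high value was that of the young ooplast array alone.

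Emc7, listed as 2900064A13Rik (chr2:112268085-112268144, plus strand), was already at 3.65 in young and 2.63 in climacteric ooplasts. It read 5.72 and 6.14 in young and 5.49 and 5.76 in climacteric blastocysts, a difference of 2.63 ± 0.30 (SE), or 6.20-fold. Its other probe was not well above background in ooplasts and was at least 2.89-fold higher in blastocysts. Emc10, listed as 2310044H10Rik (chr7:44358274-44358333, minus strand), had nearly equal levels in young and climacteric ooplasts, 2.82 and 2.71. Its blastocyst levels were 7.11 and 7.10 in young and 6.35 and 7.33 in climacteric samples. The Emc10 difference was 4.20 ± 0.33 (SE), or 18.4-fold, on this probe and 2.82 ± 0.30 (SE) on its other probe. Both probes had every blastocyst array above both ooplast arrays.

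**Figure D2:**
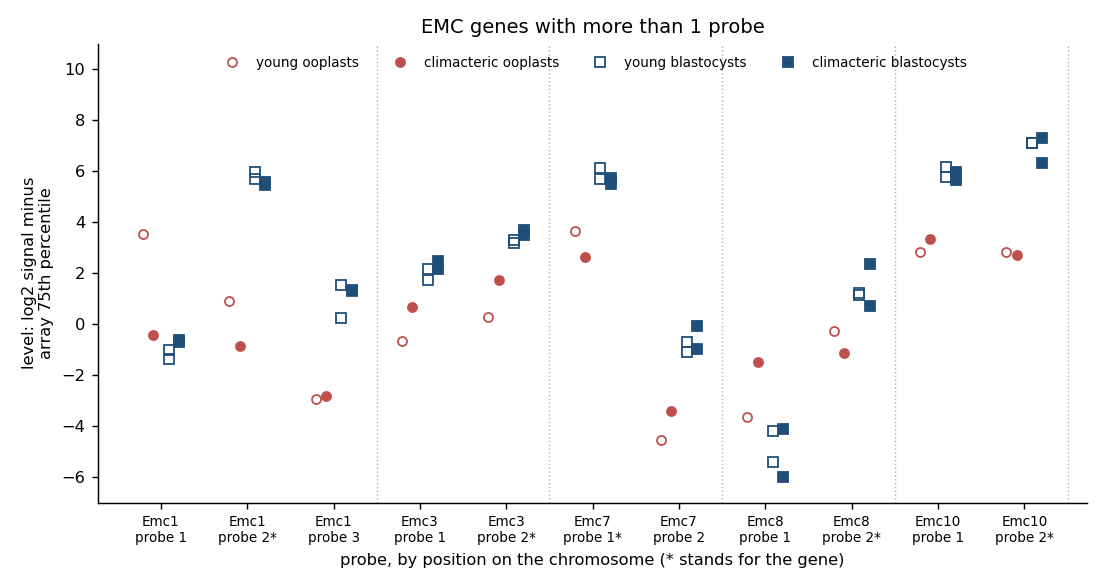
Level of every probe of the 5 EMC genes with more than 1 probe (vertical axis, log2 signal relative to the 75th percentile of its array), ordered by position on the chromosome, with circles for ooplasts, squares for blastocysts, open symbols for young and filled symbols for climacteric. Emc1 probe 1 and Emc8 probe 1 lack the higher squares of the other probes; Emc1 probe 3 and Emc7 probe 2 were not well above background on the ooplast arrays, and Emc8 probe 1 was so only in climacteric ooplasts.

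Across the probes, 12 of 15 were well above background on all 6 arrays and 13 of 15 had all blastocyst arrays above both ooplast arrays. The exceptions to the latter were the Emc1 probe high in young ooplasts and the dim Emc8 probe. Among the 13, an Emc1 and an Emc7 probe passed the background test in blastocysts only, so their ooplast levels were undetected. The share of all probes in this order was not computed, and the genes were picked by this contrast. Nothing is therefore read from the 13 of 15. Exon and UTR positions are not given, because no annotation of mm8 was used here.

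Age was compared within each stage. In blastocysts the climacteric minus young differences of the 9 genes lay between -0.40 and 0.36, with a median of -0.27 (0.0072 over all genes). Limma with Benjamini-Hochberg adjustment called 0 of the 9 genes and 0 of 15971 genes, or 0%, at 0.05. At an unadjusted p under 0.05 there were 0 of the 9 and 864 of all genes. In 6 genes the climacteric mean was lower, with Emc4 at -0.40 ± 0.41 (SE) and Emc2 at -0.38 ± 0.31 (SE). Emc3 was at 0.36 ± 0.28 (SE) and Emc8 at 0.34 ± 0.58 (SE), with the climacteric mean higher, and Emc9 at 0.00 ± 0.29 (SE). The 2 ages did not overlap in Emc1, Emc2 and Emc3, which is 3 of 9 genes, against 30% of all genes. Without climacteric blastocyst replicate 1 the members' median was 0.10, so its sign rested on that array.

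In ooplasts there was 1 array per age, so the difference has no replicate check and no test was run. Emc3 was higher in climacteric ooplasts by 1.47 on the log2 scale. Emc1, at -1.76, Emc4, at -1.05, and Emc7, at -1.02, were lower there by more than 2-fold. The next were Emc8 (-0.84), Emc2 (-0.71), Emc6 (-0.22) and Emc10 (-0.11), and Emc9 was at 0.03. In all, 7 genes were lower and 2 higher by the standing probe, while 5058 of 12291 genes were lower over all genes. The median was -0.71 against 0.15 over all genes. Among other probes above background on both ooplast arrays, that of Emc10 was at 0.49, with the sign turned. Those of Emc1 (-3.96) and Emc3 (1.33) kept the sign of the standing probe. Of 12291 genes measured on both arrays, 7.36% were at least 2-fold higher and 9.86% at least 2-fold lower, and of the 9 genes 1 and 3 were.

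**Figure D3:**
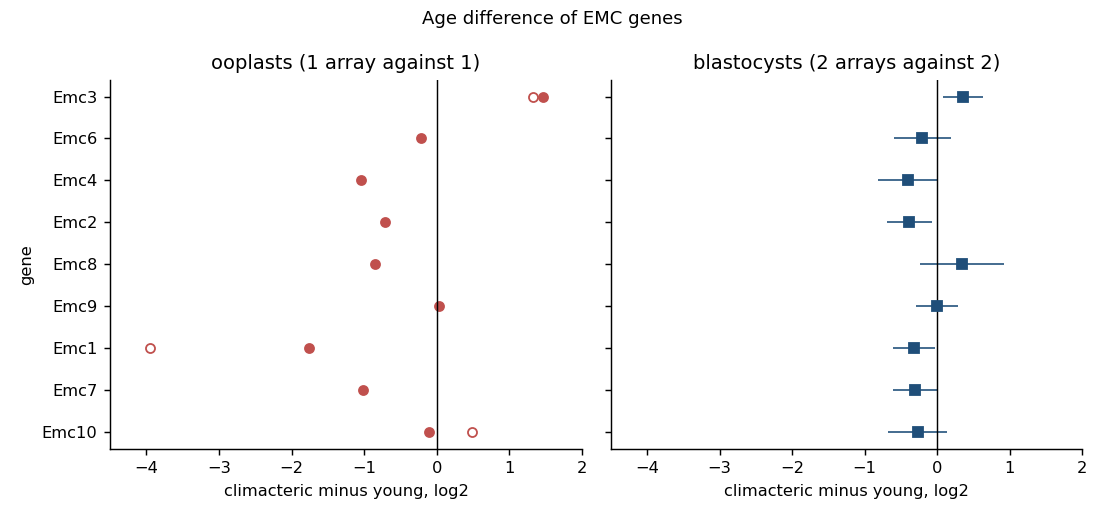
Climacteric minus young difference of each EMC gene (horizontal axis, log2) in ooplasts (left, 1 array per age, open circles for other probes above background on both arrays) and blastocysts (right, squares with SE, 2 arrays per age). In blastocysts all squares lie between -0.40 and 0.36, and in ooplasts the standing probes reach from -1.76 for Emc1 to 1.47 for Emc3.

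Whether the age difference itself differed between the stages was fitted as an interaction, where the residual spread came from the blastocyst replicates alone. Limma with Benjamini-Hochberg adjustment called 0 of the 9 genes, against 133 of 15605 genes or 0.852%. At an unadjusted p under 0.05 there was 1 of the 9, Emc1, and 1219 of all genes. The age difference of Emc1 was higher in blastocysts than in ooplasts by 1.44 ± 0.50 (SE), and for Emc3 the same contrast was -1.11 ± 0.49 (SE).

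Cell type markers were read on the same arrays. All 10 oocyte markers passed the background test in both ooplast samples. On the blastocyst arrays 5 or 6 of the 10 still passed it, and Zar1, Mos and Nlrp5 were below it on all of them. All 7 trophectoderm and all 5 inner cell mass markers with a probe were above background on every blastocyst array. In young and climacteric ooplasts 5 and 4 of the 7 trophectoderm markers passed as well, and 3 of the 5 inner cell mass markers in each. Of 8 cumulus markers, 5 and 6 passed the background test in young and climacteric ooplasts, and 5 or 6 on the blastocyst arrays. The log2 summed level of these 8 was 6.54 to 6.55 in ooplasts and 2.11 to 2.48 in blastocysts. Has2 and Fshr did not pass the background test in either ooplast sample, and Inhba did not pass it on any blastocyst array. Of 8 macrophage markers, 7 passed it in the climacteric ooplasts and on climacteric blastocyst replicate 1. Their log2 summed level was 5.35 and 5.36 there and 1.40 to 1.57 on the other 4 arrays. The part of either list in the differences above was not tested. The share of spots that passed the background test was 42.2% to 42.4% in ooplasts and 49.9% to 57.3% in blastocysts, and their 75th percentile of signal was 235 to 238 and 721 to 1111.

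The genes that work beside the EMC in membrane protein insertion and translocation were taken from lists of the known pathway members. Of 57 such genes, counting 3 EMC clients, 53 were tested, 35 were called higher and 9 lower in blastocysts (limma, Benjamini-Hochberg, 0.05), with a median of 1.65. Over all genes tested 35.5% were called higher and 39% lower, with a median of -0.26. In the GET pathway, which inserts tail-anchored proteins, 5 of 7 rose and 1 fell. Ubl4a, part of its pretargeting complex, rose by 5.74 ± 0.28 (SE; limma adjusted p = 1.44e-05), Sgta by 3.23 and Get4 by 2.17. The receptor genes Get1 and Caml rose by 4.06 ± 0.56 (SE) and 1.99 ± 0.49 (SE), with Get1 above background on 1 of the 2 ooplast arrays. The Caml call was lost without the climacteric ooplast array (1.81).

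Get3, the ATPase of that pathway, had 7.61 in young ooplasts, 0.61 in climacteric ooplasts and -0.41 to 0.31 in blastocysts. It fell by 4.08 ± 1.33 (SE; limma adjusted p = 0.0299), a call that rested on 1 array, since the difference was -0.82 without the young ooplast array. It also missed the threshold without either young blastocyst array (-3.63 and -3.60), with slide as a block and on slide 1 alone (both -3.96). Bag6, at -0.82 ± 0.54 (SE; limma adjusted p = 0.205), had 4 probes that differed in sign. On the mean of these probes Bag6 was called lower, at -1.32 ± 0.25 (SE; limma adjusted p = 0.00341). Without the young ooplast array its standing probe was at -2.02 and past the threshold, and without the climacteric one it was at 0.37, with the sign turned.

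Of the Oxa1 family members outside the EMC, Get1 and Tmco1 rose, Tmco1 by 1.38 ± 0.24 (SE), and the mitochondrial Oxa1l was at 0.08 ± 0.37 (SE; limma adjusted p = 0.848). Tmem208, the SND pathway gene, rose by 6.24 ± 0.68 (SE), and by 4.65 or 7.82 without the climacteric or the young ooplast array. In the Sec61 translocon list 1 of 6 rose and 2 fell, with Tram2 at -6.00 ± 0.61 (SE), the lowest, and Tram1 at 1.03 ± 0.40 (SE; limma adjusted p = 0.0529), the highest. Tram1 was past the threshold without the young ooplast array (1.81) or young blastocyst replicate 2 (1.20), and at 0.25 without the climacteric ooplast array. It was also past the threshold with normexp (0.96) and where all arrays had to be above background (1.03). On the mean of probes Tram1 was at 0.21 and not called, and its other probes were at -0.34 and -0.05. The single called rise in this list was that of Sec61g, at 0.69 ± 0.23 (SE; limma adjusted p = 0.0334). That call was lost without the climacteric ooplast array, young blastocyst replicate 1 or either climacteric blastocyst array. Of the signal recognition particle and receptor genes 7 of 8 rose and 1 fell, from Srp9 at 4.96 to Srp14 at -1.15. Srp68, among those that rose, was not well above background in ooplasts and was at least 1.59-fold higher in blastocysts. Srp54a and Srp72 rose on the standing probe, while another probe of Srp54a was at -2.58 and the others of Srp72 at -1.14 and -2.06. The Srp14 call was lost without either ooplast array (-1.04 and -1.26), after quantile normalization (-0.42) and on the authors' deposited values (-0.27). All 4 TRAP genes, which assist the translocon, rose, from 0.79 for Ssr3 (limma adjusted p = 0.0486) to 5.18 for Ssr4. Without the young ooplast array only 2 of them were called. Ssr3 lost its call without that array (0.43), without either young blastocyst array (0.70 and 0.77) and without climacteric blastocyst replicate 2 (0.74). It also lost it with slide as a block and on slide 1 alone (both 0.72). The same held when scaled on probes seen by every array (0.57), on the mean of probes (0.73) and without a filter (0.79).

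The multipass translocon list had 4 of 7 higher and 2 lower, or 1 lower without either ooplast array, with Tmem147 at 4.65 and Ncln at -1.31. Of 11 oligosaccharyltransferase genes 8 rose and 2 fell. Without the young ooplast array 5 were called higher. Its oxidoreductase paralogs Magt1 and Tusc3 were at its ends, at 5.83 and -4.00. The Magt1 probe was above background on 1 of the 2 ooplast arrays, so its value and rank rest partly on an undetected level, and it was 4.43 or 7.23 without the climacteric or the young ooplast array. Among 5 signal peptidase genes 4 rose and 1 fell, from Spcs3 at 7.24 to Sec11a at -2.04. The Spcs3 probe was likewise above background on 1 of the 2 ooplast arrays. Of 3 reported EMC clients 1 was called: Tmem97, the sigma-2 receptor, was not well above background in ooplasts and was at least 5.43-fold higher in blastocysts. Soat1, an enzyme of cholesterol ester synthesis, was at -0.28 ± 0.38 (SE; limma adjusted p = 0.533), and at 0.41 or -0.96 without the climacteric or the young ooplast array.

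**Figure D4:**
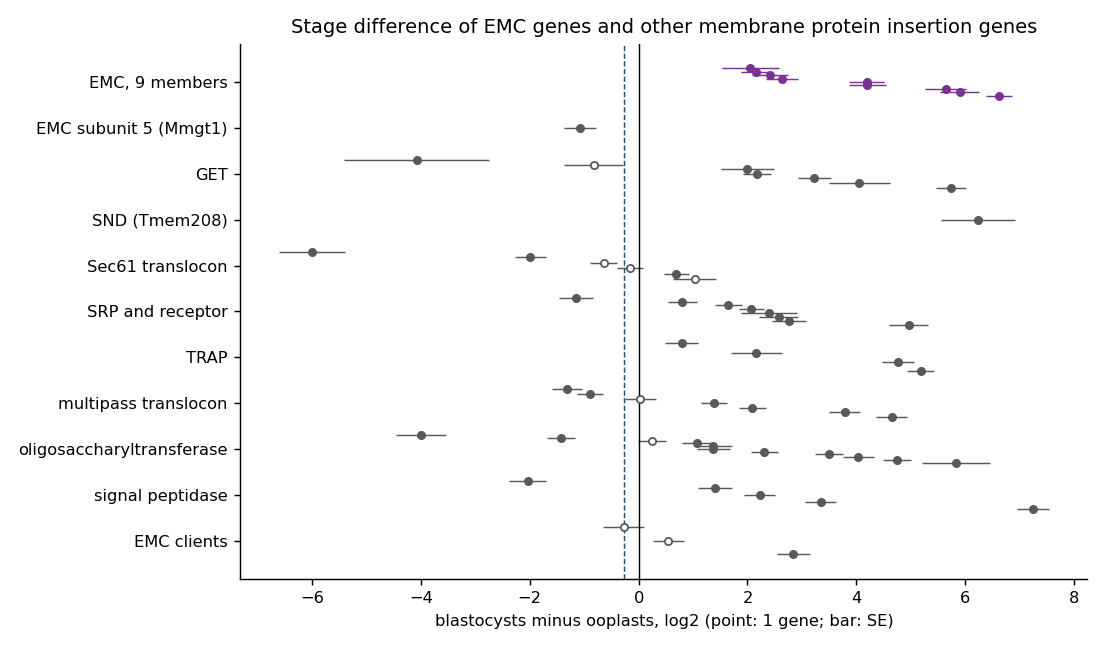
Blastocysts minus ooplasts (horizontal axis, log2) for the 9 EMC genes in purple and for other insertion and translocation genes in grey, 1 point per gene with its SE, open where the adjusted p was 0.05 or more; the dashed line is the median of all genes. The EMC points lie from 2.05 to 6.62, in genes picked by this contrast, so their side of 0 is not read against the other lists. Mmgt1, in its own row, lies at -1.08. The TRAP points lie above 0, and most other lists hold points on both sides of it.

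The 6 divergent neighbours, whose start lies within 1 kb on the opposite strand in RefSeq, were read for their own difference. Cox4i1, a cytochrome oxidase subunit gene beside Emc8, rose by 4.42 ± 0.32 (SE; limma adjusted p = 5.09e-05). Mrto4, a ribosome assembly gene beside Emc1, rose by 3.40 ± 0.40 (SE; limma adjusted p = 0.000365), and by 2.81 or 4.0 without the climacteric or the young ooplast array. Fancd2, a DNA repair gene beside Emc3, fell by 2.20 ± 0.32 (SE; limma adjusted p = 0.000965). Katnbl1 beside Emc4 was at 0.40 ± 0.29 (SE; limma adjusted p = 0.24) and Tax1bp3 beside Emc6 at -0.33 ± 0.27 (SE; limma adjusted p = 0.304). Fam71e1 beside Emc10 had 4.22 and 5.18 in ooplasts, was not well above background in any blastocyst array and was at least 340-fold lower there.

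The genes closest to the members' median profile were found by Euclidean distance over the 6 arrays, each gene centred on its own mean, among genes above background on all arrays. They were Derl1 at 0.195, Crlf3 at 0.235, Mrpl20 at 0.244, Mid1ip1 at 0.272 and Alyref at 0.291. Emc6 lay at 0.247 and Emc10 at 0.334, and the other 7 members lay 1.97 to 3.05 away. Of 10910 genes compared, 1350 lay at least as near as Emc7, the nearest of these 7, and 2287 as Emc8, the farthest. The median profile was thus near Emc6 and Emc10 and not near the other members. The likeness of the named genes to it rests on 6 arrays and mostly on the step between the stages.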

How the data were processed

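Spot intensity was read from the deposited scanner files, which per the file headers hold a background-subtracted processed signal and mm8 probe positions; Agilent Feature Extraction 9.5 is named in the submitters' processing notes. The authors' deposited log2 value table (median 6.25 in each column, rank correlation 1 with its own array) was an alternative. Control spots were left out, log2 processed signal was centred on each array's 75th percentile, and spots of a probe were averaged. To be tested, a probe had to pass the scanner software's background test on all arrays of 1 or more of the groups compared. Probes were named through RefSeq (GRCm38.p6): 24375 by accession, 6301 by current symbol, 2426 by synonym, and 8072 kept the file's name.

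Stage was fitted on all 6 arrays with age as a term, and age on the 4 blastocyst arrays (limma 3.58.1 in R 4.3.3, moderated and two-sided, with Benjamini-Hochberg adjustment over all genes). The members, lists and alternatives were chosen with earlier results of these data known. The text names every member, Mmgt1, all GET and Oxa1 genes, each list's highest and lowest gene, divergent neighbours and the 5 nearest profiles. The scripts were tested on simulated data. Both ooplast samples and the blastocyst replicates numbered 1 lay on slide 1, the others on slide 2, so number and slide coincide in blastocysts. The number of arrays limits the precision.

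Alternatives covered scaling, quantile normalization, normexp (offset 50), the deposited values, the mean of probes, the filter, slide, age, the replicate block and leaving out each array. A setting without the 2 arrays high in macrophage markers was added after seeing the data. Srp54b, Srp54c, Mmgt2 and Fgf4 matched no probe name and were not analysed here.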

Additional observations from a re-analysis of the deposited data

Results flagged for a closer look

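On the Emc4 probe, climacteric blastocyst replicate 1 stood apart from the other 3 blastocyst arrays, at a level of 6.19, with a gap of 0.898 of the range of the 4 arrays. Chance sets apart about 1 in 20 groups of this kind. All probes of the members and Mmgt1 above background on the 4 blastocyst arrays were screened for it. On climacteric blastocyst replicate 1, 7 of the 9 members had their lowest blastocyst level, all but Emc3 and Emc8. For Emc9 this was 5.86 against 5.87 on young blastocyst replicate 2. The share of all genes lowest on that array was not computed, so nothing is read from this count. Climacteric blastocyst replicate 1 was also the blastocyst array high in macrophage markers, with a log2 summed level of 5.36 against 1.40 to 1.57 on the others. The part of these in the levels was not tested.

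The interaction of age and stage in limma, with Benjamini-Hochberg adjustment, was 6.52 ± 0.52 (SE; adjusted p = 0.0194) for Get3. Past the threshold here, it missed it on the deposited values (adjusted p = 0.0564) and without climacteric blastocyst replicate 1 or 2 (0.085 and 0.0777). For 1 of the 4 Bag6 probes it was 6.85 ± 0.72 (SE; adjusted p = 0.0349). The Emc1 probe at chr4:138639227-138639286 gave 4.48 ± 0.53 (SE), with no p given for a member. All 3 probes were high on the young ooplast array alone, at 7.61, 8.28 and 3.53, against 0.61, 0.78 and -0.43 on the climacteric ooplast array. The ooplast side of each rests on 1 array per age, so the spread between ooplast samples is not in these tests. The alternatives were fitted on the probe that stands for a gene and thus not on the Bag6 and Emc1 probes.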

How the results depend on the processing

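The stage median of the members was 3.97 when scaled on the probes seen by every array, 2.95 on the mean of probes, 3.92 with slide as a block or on slide 1 alone, and 3.99 to 4.38 leaving out 1 array. Without the 2 arrays high in macrophage markers, a fit added after seeing the data that leaves 1 ooplast array, it was 4.18. With age as a term, that fit equals the one on the young arrays alone, so it is no separate check on those markers. All genes' stage median was -0.48 to -0.14 across scalings. Without a filter 19945 genes were called for stage, 14335 lower, and 3206 were higher where all arrays had to be above background. The members' blastocyst age median was 0.0030 on the mean of probes and -0.43 to 0.10 leaving out 1 array. Interaction calls were 37 (35 higher, 2 lower) after quantile normalization, 0 on the deposited values, 2 lower with normexp, 2 lower with the strict filter and 0 to 161 leaving out 1 array (0 to 157 higher, 0 to 4 lower), with 0 without either climacteric blastocyst array. The members' interaction median was 0.013 on the mean of probes and 0.14 to 0.50 leaving out 1 array. In ooplasts 1 member was at least 2-fold lower when scaled on detected probes; with normexp 1347 genes were apart, 445 higher, and the members' median was -0.40. On the mean of probes the sign turned for Srp54a (-0.89), Srp72 (-0.38), Spcs2 (-0.18) and Soat1 (0.84) by stage, and for Bag6 (-0.61) and Srp9 (0.077) in ooplasts. The cause was not tested.

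Same-numbered young and climacteric blastocysts deviated together with a correlation of 0.17 over 15971 genes, but 2 pairs do not show a pairing. With the replicate block 0 genes were called by limma for age in blastocysts, the members' median stayed at -0.27, and no call changed.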
